A study of Mus musculus with 6 samples.

Results

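The genes described here encode costimulatory and coinhibitory molecules of antigen-presenting cells. They were chosen by name from the table of transcript levels, as the rows for Cd40, Cd80, Cd86, Cd83, Cd274, Pdcd1lg2, Icosl, Tnfrsf9, Tnfsf9 and Slamf1, and all 10 were found among 54532 genes. The rule uses no measured value, although the list was drawn up with earlier results of these data known. Bone-marrow-derived macrophages (BMDMs) of wild-type C57BL/6 mice had been left untreated, stimulated with LPS at 100 ng/ml for 2 h, or given metformin at 5 mM for 6 h before the same LPS stimulation (Met + LPS), with 2 libraries in each group. LPS is a bacterial cell wall component that activates macrophages through TLR4, and metformin is an antidiabetic drug that inhibits mitochondrial respiration and activates AMPK. The comparisons asked how LPS changed these transcripts and how metformin pretreatment altered the response. No library of metformin alone was analysed, so an effect of metformin in unstimulated cells could not be measured.

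T cells need a signal besides the antigen receptor to become fully activated, and macrophages and dendritic cells provide it through surface ligands. CD80 and CD86 bind CD28, which promotes activation, and CTLA-4, which restrains it, and ICOSL binds ICOS. PD-L1, encoded by Cd274, and PD-L2, encoded by Pdcd1lg2, bind PD-1 on T cells and dampen the response. CD40 receives CD40L from T cells, and 4-1BBL, encoded by Tnfsf9, engages 4-1BB, encoded by Tnfrsf9. CD83 marks mature dendritic cells and SLAMF1 is a self-binding receptor of lymphocytes and activated myeloid cells.

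Levels are given as TPM, a transcript abundance scaled to gene length and library total. The TPM values kept the steps of whole reads, from which 25457016 to 30762755 reads per library were recovered. The labelled cell type was checked against marker lists. The summed TPM of 8 macrophage markers was 44621 to 46599 in untreated, 37412 to 37903 in LPS and 30877 to 30948 in Met + LPS libraries, most of it Lyz2. By an adjusted p under 0.01, 2 of the 8, Cd14 and Adgre1, rose after LPS, against 16.2% of tested genes, and 5 fell, against 60.1%. The sign of 5 of the 8 differences after LPS turned with median-ratio scaling. Between Met + LPS and LPS, 0 of the 8 rose and 6 fell by adjusted p, against 14.5% and 18.0% of tested genes. The largest fall was that of Fcgr1, with a log2 difference of -1.14 (adjusted p = 5.1e-05 by limma). All 6 T-cell, 4 NK-cell and 5 stromal markers were under 1 TPM in every library, as were 6 of 8 dendritic-cell and 5 of 6 B-cell markers. Summed dendritic-cell markers were 1.32 to 1.81 TPM in untreated, 2.64 to 2.70 in LPS and 2.40 to 3.02 in Met + LPS libraries. Within that list Zbtb46 went from 0.108 and 0.164 TPM in untreated to 1.53 and 1.14 in LPS libraries and Xcr1 from 0.0886 and 0.0313 to 0.561 and 0.831, while Clec9a went from 0.320 and 0.297 to 0.0798 and 0.208. Summed neutrophil markers were 27.7 to 30.9 TPM in untreated, 24.5 to 26.2 in LPS and 40.8 to 42.4 in Met + LPS libraries. The part of these differences in the results was not tested. In bulk RNA, fewer cells of a type and less RNA per cell cannot be told apart. Per the study's methods the cells were seeded in duplicate, and whether the duplicates came from separate mice is not stated, so p-values measure only the spread between these libraries, which may be that of cultures of the same cells.

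After LPS, transcripts of 7 of the 8 members that could be tested rose past both cut-offs, which were 2 for the size of the log2 fold change and 0.01 for the adjusted p, and 0 fell. Among all 12755 tested genes, 3.72% rose and 2.37% fell past them. The remaining pair, Pdcd1lg2 and Slamf1, did not reach 1 TPM in 2 libraries and was not tested. By adjusted p alone, 8 members rose and 0 fell, against 16.2% and 60.1% of tested genes. In 8 members the LPS libraries all lay above the untreated ones, as in 20.1% of tested genes, and in 0 members they all lay below, as in 71.5%. The median log2 fold change was 3.37 over the 8 members and -0.48 over all tested genes. The counts of 8 and this median include Tnfrsf9, which reached 1 TPM only in the LPS libraries. The filter therefore favored its rise, and it is not among the 7 past both cut-offs. Scaling each library by median ratios moved the median of all genes to -0.01 and that of the members to 3.89.

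With metformin pretreatment, the members moved in different directions. Between Met + LPS and LPS, 2 members, Cd40 and Tnfrsf9, fell past an absolute log2 fold change of 0.7 with an adjusted p under 0.01, against 4.09% of tested genes, and 0 rose past both, against 4.19%. Tnfrsf9 passed the filter on low values only through the LPS libraries, where it is high, so the filter favored its fall, and its call was lost without either Met + LPS library, which leaves Cd40 alone. By adjusted p alone, Cd86 and Tnfsf9 rose, 2 members against 14.5% of genes, and Cd40, Cd80, Icosl and Tnfrsf9 fell, 4 members against 18.0%. Libraries of the groups did not overlap for 3 members that were higher and 5 that were lower, as for 33.8% and 40.0% of tested genes. The median log2 fold change was -0.22 for the 8 members and -0.03 for all tested genes. Both comparisons share the LPS libraries.

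**Figure D1:**
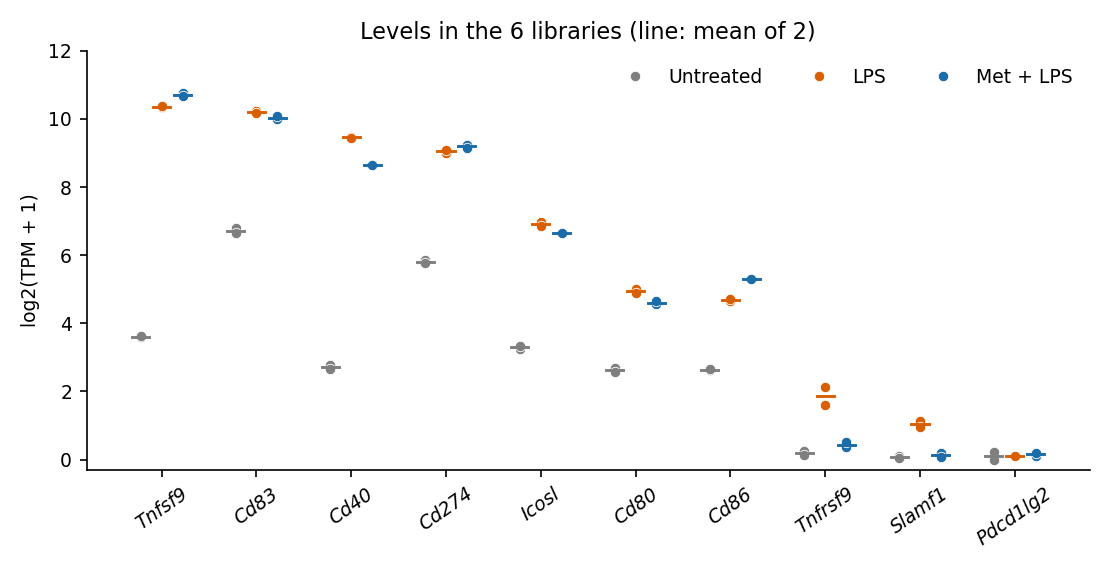
Transcript level of each member on the log2(TPM + 1) scale (y axis) in the 6 libraries, colored by group, with each point a library and each line the mean of 2. Both LPS libraries lay above both untreated ones for the 8 tested members and for Slamf1, and Pdcd1lg2 was near 0 in every library.

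The ligands of CD28 and CTLA-4 had similar transcript levels in untreated BMDMs. After LPS Cd80 lay above Cd86, and with metformin pretreatment Cd86 lay above Cd80, without overlap in either group. Cd80 (ENSMUSG00000075122, GRCm38 chromosome 16, 38455561 to 38496335) measured 5.43 and 4.94 TPM in untreated, 31.4 and 28.5 in LPS, and 22.5 and 24.2 in Met + LPS libraries. Cd86 (ENSMUSG00000022901, chromosome 16, 36603869 to 36666081, minus strand) measured 5.17 and 5.26, then 24.4 and 25.2, and then 38.1 and 38.5 TPM in the same order. Neither gene had overlapping groups between LPS and untreated or between Met + LPS and LPS, and Cd80 was intermediate in Met + LPS while Cd86 was highest there. LPS raised Cd80 by a log2 fold change of 2.32 ± 0.07 (SE, n = 2 per group, adjusted p = 5.4e-07 by limma with Benjamini-Hochberg adjustment), and Cd86 by 2.05 ± 0.05 (SE, adjusted p = 1.4e-07). Cd86 rose further with metformin pretreatment, by 0.61 (95% interval 0.49 to 0.72, adjusted p = 0.00015), short of the cut-off of 0.7. Cd80 was lower by a log2 difference of -0.35 (95% interval -0.53 to -0.17, adjusted p = 0.0091), a call that was lost in 11 of 16 alternatives, among them the removal of any of the 6 libraries, with adjusted p of 0.017 to 0.055. The ratio of Cd86 to Cd80 TPM was 1.01 ± 0.0803 (SD, n = 2) in untreated, 0.830 ± 0.0763 in LPS and 1.64 ± 0.0745 in Met + LPS libraries. This ratio was chosen after its values were seen and is given as a description.

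Icosl, the ligand of ICOS (ENSMUSG00000000732, chromosome 10, 78069302 to 78083913), measured 8.57 and 9.12 TPM in untreated, 125 and 115 in LPS, and 99.0 and 98.9 in Met + LPS libraries. The groups did not overlap, and Met + LPS lay between the others, nearer to LPS. LPS raised Icosl by a log2 fold change of 3.62 ± 0.05 (SE, adjusted p = 2.1e-08 by limma). Metformin pretreatment lowered it by a log2 difference of -0.27 (95% interval -0.41 to -0.14, adjusted p = 0.0068). The call was lost in 9 of 16 alternatives, including without either untreated or either Met + LPS library and without LPS replicate 1, with adjusted p of 0.018 to 0.037.

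The ligands of PD-1 are neighbors on chromosome 19, 22823 bases apart, and differed greatly in level. Cd274 (ENSMUSG00000016496, 29367455 to 29388095) measured 56.4 and 53.1 TPM in untreated, 511 and 547 in LPS, and 602 and 568 in Met + LPS libraries. Untreated libraries lay far below the others, and both Met + LPS libraries lay above both LPS libraries by a small margin. LPS raised Cd274 by a log2 fold change of 3.25 ± 0.05 (SE, adjusted p = 2.3e-08 by limma). The log2 difference between Met + LPS and LPS was 0.15 (95% interval 0.02 to 0.27, adjusted p = 0.056), which did not pass the test, though it passed in 2 of 16 alternatives, both with voom on recovered reads (adjusted p = 0.0048 and 0.0025). Pdcd1lg2 (ENSMUSG00000016498, 29410919 to 29471157) measured 0 and 0.170 TPM in untreated, 0.0799 and 0.0833 in LPS, and 0.0804 and 0.137 in Met + LPS libraries. These values stand for 0 to 2 reads per library, below the floor of 3 reads, which equals 0.173 to 0.214 TPM for this gene, so that no fold is given and a change was not detectable at this depth.

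RefSeq promoter windows of 250 bases before a transcription start were found for 6 of the 10 members (GRCm38.p6). Those of the neighboring PD-1 ligands and of Icosl are shown because these genes differed in level and response, and the second Tnfrsf9 window because it holds the most motif matches. Capitals mark matches to the NF-kB consensus and to the AP-1 motif TGANTCA on either strand.
Cd274, chr19:29367188-29367437, plus strand: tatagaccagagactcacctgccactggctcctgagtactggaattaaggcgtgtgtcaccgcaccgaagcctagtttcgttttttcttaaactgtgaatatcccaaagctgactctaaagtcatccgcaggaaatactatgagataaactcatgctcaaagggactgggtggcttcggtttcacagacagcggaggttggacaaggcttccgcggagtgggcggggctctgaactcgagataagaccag
Pdcd1lg2, chr19:29410669-29410918, plus strand: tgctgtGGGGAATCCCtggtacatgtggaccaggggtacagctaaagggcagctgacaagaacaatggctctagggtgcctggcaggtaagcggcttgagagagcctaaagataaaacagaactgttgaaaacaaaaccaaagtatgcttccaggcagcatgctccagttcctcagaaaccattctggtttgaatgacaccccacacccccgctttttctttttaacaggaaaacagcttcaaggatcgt
Icosl, chr10:78069118-78069367, plus strand: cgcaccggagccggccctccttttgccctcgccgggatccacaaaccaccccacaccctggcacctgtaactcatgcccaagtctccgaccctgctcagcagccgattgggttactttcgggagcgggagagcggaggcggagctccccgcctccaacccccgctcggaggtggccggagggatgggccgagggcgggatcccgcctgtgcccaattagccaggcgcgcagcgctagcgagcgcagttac
Tnfrsf9, chr4:150927749-150927998, plus strand: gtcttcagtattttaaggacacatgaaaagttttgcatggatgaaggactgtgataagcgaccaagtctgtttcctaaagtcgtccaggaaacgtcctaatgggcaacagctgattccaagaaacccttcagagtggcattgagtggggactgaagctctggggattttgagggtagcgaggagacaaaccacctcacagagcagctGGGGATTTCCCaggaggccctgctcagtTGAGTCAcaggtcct
Matches to the NF-kB consensus occurred in 3.9% of 32851 promoter windows of this length, to AP-1 in 6.75%, to the interferon motif, GAAA, any 2 bases and GAAA, in 2.98%, and to the STAT motif TTCNNNGAA in 7.02%. The Pdcd1lg2 window held an NF-kB match. The Tnfrsf9 window held 2 overlapping NF-kB matches, an AP-1 match and a STAT match, and the Cd80 window an AP-1 match. The windows of Cd274, Icosl and Slamf1 and the other Tnfrsf9 window held none of the 4 motifs. Icosl had 23 CG dinucleotides and 68.8% GC, against medians of 6 and 52.4% over all windows, Cd274 had 11 and Pdcd1lg2 had 3. A match describes the letters of the window and not a bound site.

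**Figure D2:**
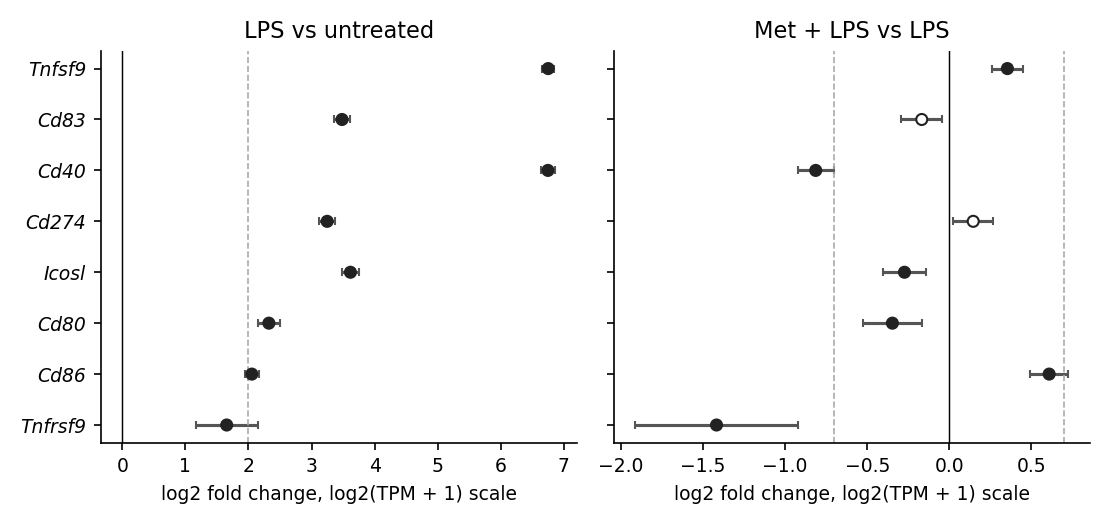
Log2 fold change of the tested members on the log2(TPM + 1) scale (x axis) in each comparison, with bars for the 95% interval from limma. After LPS, 7 of 8 members lay past 2, whereas between Met + LPS and LPS the values ran from -1.42 for Tnfrsf9 to 0.61 for Cd86.

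Among the TNF-related members, Cd40 and Tnfsf9 rose more than any other tested member after LPS and then diverged with metformin pretreatment. Cd40, the receptor for CD40L (ENSMUSG00000017652, chromosome 2, 165055627 to 165072948), measured 5.83 and 5.29 TPM in untreated, 707 and 699 in LPS, and 396 and 403 in Met + LPS libraries. Its groups were widely separated, with Met + LPS between the others. Mean TPM was 126-fold higher after LPS, with a log2 fold change of 6.75 ± 0.05 (SE, adjusted p = 1.2e-09). Mean TPM in Met + LPS was 0.568 of that in LPS, a log2 difference of -0.81 (95% interval -0.92 to -0.70, adjusted p = 4.3e-05 by limma). The call by adjusted p held in all 16 alternatives run for it, with log2 differences of -0.83 to -0.80. A log2 fold-change cut-off of 1 was not among these 16. Under that cut-off Cd40 did not pass, and the member left was Tnfrsf9 at -1.42. In Met + LPS libraries Cd40 remained 71.9-fold above untreated.

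Tnfsf9, the ligand of 4-1BB (ENSMUSG00000035678, chromosome 17, 57105325 to 57107757), measured 11.0 and 11.3 TPM in untreated, 1289.9 and 1322 in LPS, and 1720.3 and 1619 in Met + LPS libraries. It was the most abundant member after LPS, and both Met + LPS libraries exceeded both LPS libraries. The log2 fold change was 6.75 after LPS (adjusted p = 9.5e-10), and 0.35 between Met + LPS and LPS (95% interval 0.26 to 0.45, adjusted p = 0.00058), below the cut-off of 0.7. The ratio of Tnfsf9 to Cd40 TPM, chosen after its values were seen, was 2.01 ± 0.170 (SD, n = 2) in untreated, 1.86 ± 0.0477 in LPS and 4.18 ± 0.234 in Met + LPS libraries.

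**Figure D3:**
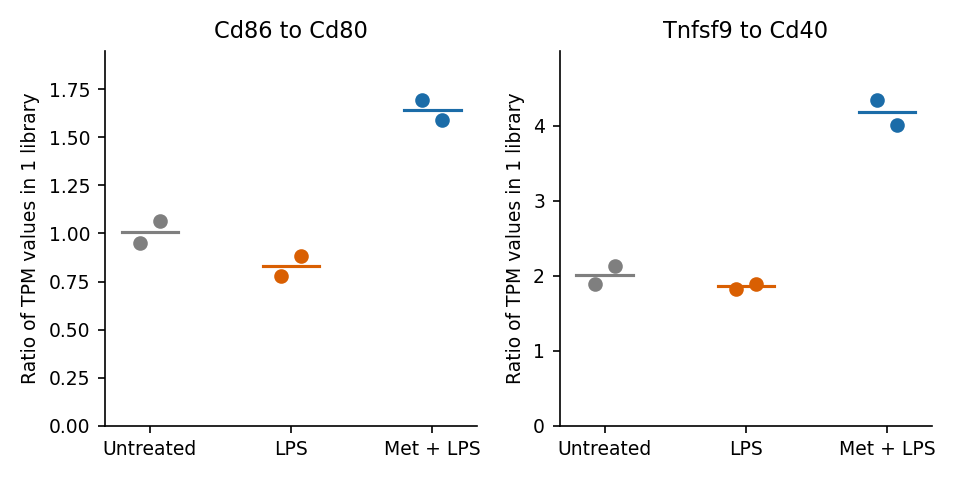
Ratio of TPM values within a library (y axis) by group, with each point a library. The ratio of Cd86 to Cd80 was 1.59 and 1.70 in the Met + LPS libraries against at most 1.07 elsewhere, and the ratio of Tnfsf9 to Cd40 was 4.01 and 4.35 against at most 2.13.

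Tnfrsf9, the receptor 4-1BB itself (ENSMUSG00000028965, chromosome 4, 150914562 to 150946102), was scarce. It measured 0.193 and 0.103 TPM in untreated, 3.33 and 2.01 in LPS, and 0.292 and 0.415 in Met + LPS libraries, from 4 and 2, 69 and 40, and 6 and 10 reads. Only the LPS libraries exceeded 1 TPM, so the gene entered the test through them alone. Pooled reads per total were 18.2 times higher in LPS than in untreated libraries (95% exact interval 8.11 to 50.8) and 7.50 times higher than in Met + LPS libraries (4.42 to 13.6), intervals that cover counting error only. On the log2(TPM + 1) scale, which understates changes of low genes, the difference was 1.66 after LPS (adjusted p = 0.00027), short of the cut-off of 2, and -1.42 between Met + LPS and LPS (95% interval -1.91 to -0.92, adjusted p = 0.0018). The latter call was lost without Met + LPS replicate 1 (adjusted p = 0.015) or replicate 2 (adjusted p = 0.012). With limma voom on recovered reads the log2 differences were 3.99, past the cut-off, and -2.81. Between Met + LPS and untreated, the difference of 0.24 did not pass the test (adjusted p = 0.31).

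Slamf1 (ENSMUSG00000015316, chromosome 1, 171767127 to 171801184) followed the same order as Tnfrsf9 at still lower levels. It measured 0.0641 and 0.0227 TPM in untreated, 1.20 and 0.957 in LPS, and 0.150 and 0.0551 in Met + LPS libraries, from 3 and 1, 56 and 43, and 7 and 3 reads. The LPS libraries stood above all others, and the remaining groups overlapped. Pooled reads per total were 24.8 times higher in LPS than in untreated libraries (95% exact interval 9.40 to 93.0) and 10.9 times higher than in Met + LPS libraries (5.69 to 23.4). These intervals cover counting error only. With voom on genes with at least 10 reads in 2 libraries, an alternative chosen after the data were seen, the log2 difference was 4.43 after LPS (adjusted p = 2.8e-08) and -3.44 between Met + LPS and LPS (adjusted p = 1.5e-07). Slamf1 entered that test only through the LPS libraries, the group where it is high, so these values are a description.

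**Figure D4:**
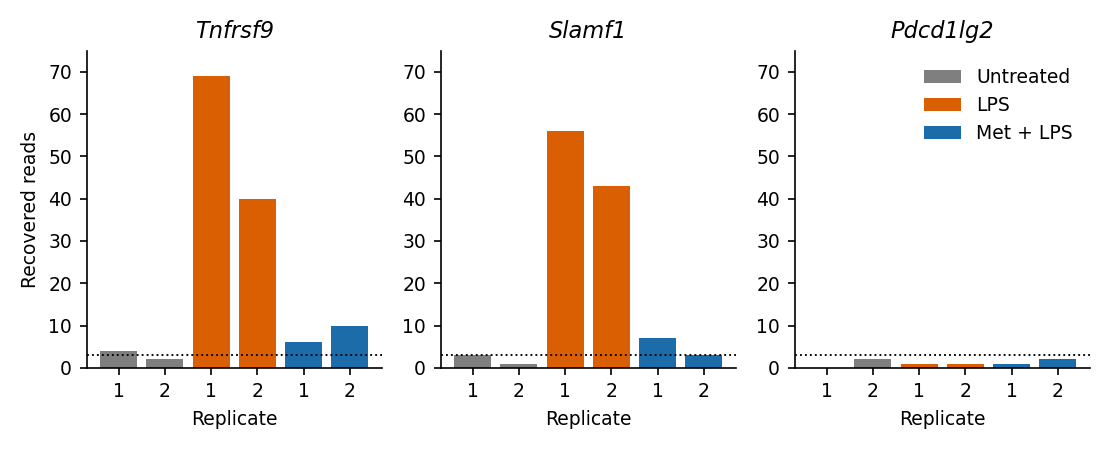
Recovered reads (y axis) of the scarce members in each library, with bars for single libraries and a dotted line at the floor of 3 reads. Tnfrsf9 reached 69 and 40 reads and Slamf1 56 and 43 in the LPS libraries, against at most 10 in any other library, and Pdcd1lg2 had at most 2.

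Cd83 (ENSMUSG00000015396, chromosome 13, 43784775 to 43803132) was the most abundant member in untreated BMDMs, at 109 and 100.3 TPM, and measured 1213 and 1149 in LPS and 1026 and 1075 in Met + LPS libraries. Met + LPS libraries lay below LPS libraries without overlap. LPS raised Cd83 by a log2 fold change of 3.48 ± 0.05 (SE, adjusted p = 1.9e-08 by limma). The log2 difference between Met + LPS and LPS was -0.17 (95% interval -0.29 to -0.04, adjusted p = 0.035), which did not pass the cut-off of 0.01. It passed in 3 of 16 alternatives, both fits with voom on recovered reads (adjusted p = 0.0013 and 0.00042) and an adjusted p cut-off of 0.05.

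The order of levels per length changed between groups. In untreated libraries it ran Cd83, Cd274, Tnfsf9, Icosl and Cd40, followed by Cd86 and Cd80, whose ranges overlapped, and by Tnfrsf9, Pdcd1lg2 and Slamf1, neighbors that also overlapped. After LPS it ran Tnfsf9, Cd83, Cd40, Cd274, Icosl, Cd80, Cd86, Tnfrsf9, Slamf1 and Pdcd1lg2, with no overlap between neighbors. In Met + LPS, Cd274 stood above Cd40 and Cd86 above Cd80, and the ranges of the last pair, Pdcd1lg2 and Slamf1, overlapped. The summed TPM of the 10 members was 190 to 202 in untreated, 3888 to 3906 in LPS and 3828 to 3904 in Met + LPS libraries, of which Tnfsf9, Cd83, Cd40 and Cd274 made up 95.2% to 95.9% in the LPS-stimulated groups.

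Against untreated BMDMs, 6 members remained higher in Met + LPS past both cut-offs, against 3.18% of tested genes, and 7 by adjusted p alone, against 16.3%. Lower levels were called for 0 members, against 2.16% of tested genes past both cut-offs and 58.8% by adjusted p alone. In 8 members both Met + LPS libraries lay above both untreated ones, as in 21.7% of tested genes, and in 0 members below, as in 69.1%. Cd80 passed by p with a log2 fold change of 1.98, just under 2, and Tnfrsf9 did not pass. With median-ratio scaling Cd80 passed both cut-offs at 2.44, which made 7 members past both, and with voom on recovered reads it was at 2.19. This comparison shares libraries with both others.

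**Figure D5:**
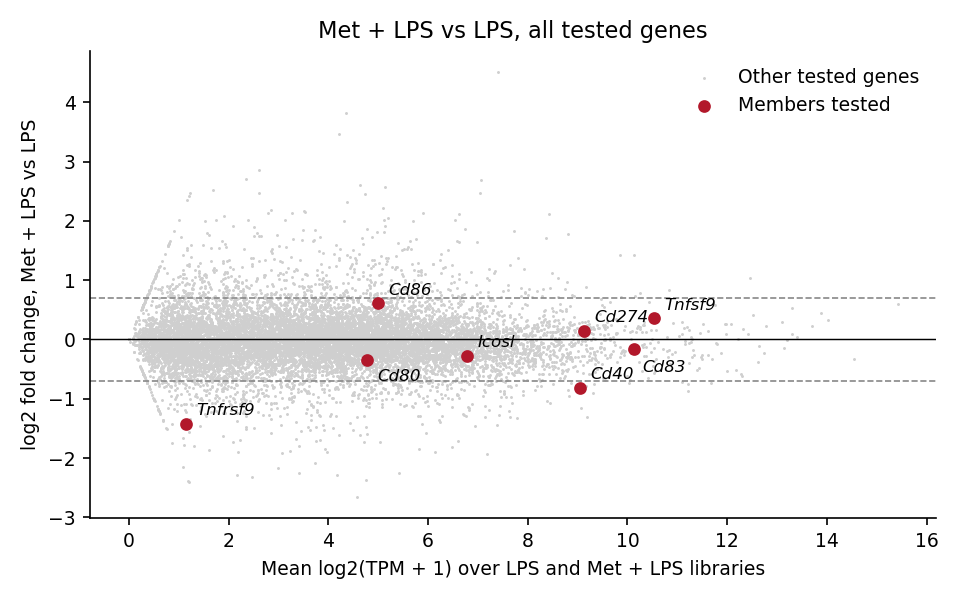
Log2 difference of Met + LPS from LPS (y axis) against mean log2(TPM + 1) over the 4 libraries of these groups (x axis) for all 12755 tested genes, with the 8 tested members in red. Tnfrsf9 at -1.42 and Cd40 at -0.81 were the members past the cut-off of 0.7.

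Other ligands and partners were taken from lists of related genes. Median log2 differences after LPS, and then between Met + LPS and LPS, were 1.12 and -0.45 for the tested genes of the B7-related list, 1.67 and 0.14 for TNF-family ligands, -0.13 and 0.08 for the SLAM family, and 0.34 and -0.30 for signaling and turnover genes, where all tested genes had -0.48 and -0.03. With median-ratio scaling the SLAM-family median after LPS turned to 0.35. Of 11 further B7-related and nectin ligands, 7 were tested. After LPS, 3 rose past both cut-offs, against 3.72% of tested genes, and 0 fell, against 2.37%. The 3 were Pvr (log2 fold change 3.24), Nectin2 (2.89) and Cd200 (2.61). Of these ligands, 2 fell past both with metformin pretreatment, against 4.09% of tested genes, and 0 rose, against 4.19%. The 2 were Vsir, which encodes the inhibitory ligand VISTA (-0.76), and Nectin2 (-0.70). Nectin2 dropped below the cut-off with median-ratio scaling at -0.69. Vsir had 323 ± 2.50 TPM (SD, n = 2) in untreated, 184 ± 2.71 in LPS and 108 ± 7.60 in Met + LPS libraries. It was the most abundant of these ligands in untreated libraries, and Lgals9, which encodes galectin-9, was above it in LPS libraries at 301 ± 11.3 TPM and in Met + LPS libraries at 187 ± 2.11.

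All 9 other TNF-family ligands were tested, and Tnfsf4, the OX40 ligand (log2 fold change 6.52), Tnfsf15 (5.42), Tnfsf10, which encodes TRAIL (4.17), and Tnfsf14 (2.03) rose past both cut-offs after LPS. Those 4 compare with 3.72% of tested genes, and 0 fell past both, against 2.37%. On the log2(TPM + 1) scale, which understates changes of low genes, Tnfsf8 (1.67), Tnfsf18 (1.46) and Cd70 (1.28) rose by adjusted p alone. With voom on recovered reads they were past 2, at 2.38, 3.54 and 4.25. Cd70 had 0 reads in untreated and 9 in each LPS library. Tnfsf13 was lower in both fits, at -1.03 and -1.08. Tnfsf18, Cd70, Tnfsf4, Tnfsf10 and Tnfsf15 reached 1 TPM only in LPS-stimulated libraries, so the filter favored their rise. With metformin pretreatment only Tnfsf18, the GITR ligand, passed both among these 9, where 4.19% of tested genes rose and 4.09% fell past both. Its log2 difference was 1.74, with mean TPM of 2.36 ± 0.435 in LPS and 10.3 ± 1.19 in Met + LPS libraries. In the SLAM family, 8 of 11 genes in the table were tested. After LPS, 0 rose past both cut-offs, against 3.72% of tested genes, and 1 fell, the adaptor Sh2d1b1 (-2.48), against 2.37%. By adjusted p alone, 2 rose and 3 fell, against 16.2% and 60.1% of tested genes. These counts depend on the scaling, since the sign of 3 of the 8 turned with median-ratio scaling. Cd48, called lower at -0.15, was then higher by 0.37 (adjusted p = 9.5e-05 by limma). Slamf8 went from -0.16 to 0.34 (adjusted p = 0.0014) and Ly9 from 0.03 to 0.55 (adjusted p = 6.8e-06), while Cd84 and Sh2d1b1 stayed lower. Slamf7 rose by adjusted p alone with a log2 fold change of 1.59, and passed both cut-offs with median-ratio scaling at 2.11. With metformin pretreatment 0 of the family passed both, where 4.19% of tested genes rose and 4.09% fell past both. Ly9 had 565 ± 0.792 TPM (SD, n = 2) in untreated, 576 ± 8.52 in LPS and 654 ± 13.5 in Met + LPS libraries, and was the most abundant of the family in untreated and Met + LPS libraries, with Slamf7 above it in both LPS libraries.

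Of 12 genes for signaling by TNF receptors and for turnover of B7 proteins, all were tested. Traf1 (log2 fold change 3.96) and Birc3 (2.40), an adaptor and a ubiquitin ligase of this signaling, rose past both cut-offs after LPS. Those 2 compare with 3.72% of tested genes, and 0 fell past both, against 2.37%. By adjusted p alone, 7 rose and 4 fell, against 16.2% and 60.1% of tested genes. With metformin pretreatment, 3 rose and 6 fell by adjusted p alone, against 14.5% and 18.0% of tested genes. Past both cut-offs, 0 rose, against 4.19%, and 1 fell, against 4.09%. That gene was Cmtm6, which stabilizes PD-L1 protein, with a log2 difference of -0.72 and mean TPM of 240 ± 11.7 in LPS and 145 ± 0.717 in Met + LPS libraries. March1, a ubiquitin ligase that removes CD86 from the surface, had a log2 difference of -0.69 between Met + LPS and LPS, just short of the cut-off. It passed at -0.70 with median-ratio scaling and at -1.03 with voom on recovered reads (adjusted p = 5.7e-06). It was a low gene, with mean TPM of 3.06 in LPS and 1.52 in Met + LPS libraries. Against untreated it was lower by -2.29, or -1.85 and short of the cut-off of 2 with median-ratio scaling, and -2.89 with voom.

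Of 12 counter-receptors known from T cells, 3 were tested. Lag3, an inhibitory receptor, rose after LPS by 2.56 on the log2(TPM + 1) scale and fell with metformin pretreatment, with a log2 difference of -1.62. It was scarce, with 2 and 1 reads in untreated, 95 and 78 in LPS, and 19 and 19 in Met + LPS libraries. With voom on recovered reads these log2 differences were 5.48 and -2.30. Cd28 and Havcr2, which encodes TIM-3, rose with metformin pretreatment by 0.88 and 0.84. After LPS both had fallen by adjusted p, with log2 differences of -1.55 and -0.79, as had 60.1% of tested genes. Past both cut-offs, 1 of the 3 rose after LPS, against 3.72% of tested genes, and 0 fell, against 2.37%. With metformin pretreatment 2 rose past both, against 4.19%, and 1 fell, against 4.09%. Cd28 had 23.7 ± 0.301 TPM in untreated, 7.41 ± 0.0349 in LPS and 14.5 ± 0.233 in Met + LPS libraries. Havcr2 had 34.8 ± 0.754, 19.6 ± 0.983 and 35.8 ± 0.0556 TPM in the same order. The summed TPM of the 6 T-cell markers was 0 to 0.162 in untreated, 0.666 to 0.732 in LPS and 0.592 to 0.687 in Met + LPS libraries. Most of the sum after LPS was Cd247, at 0.0247 and 0 TPM in untreated, 0.666 and 0.694 in LPS, and 0.670 and 0.530 in Met + LPS libraries. Of the defining markers, Cd3g was at 0 in every library, and Cd3d and Cd3e were at 0 in all but untreated replicate 1. The part of these markers in the counter-receptor values was not tested.

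For each member, the pair of tested genes with the nearest pattern over the 6 libraries was found by Euclidean distance of centered log2(TPM + 1) values. Nearest to Cd40 were Adamts4 (distance 0.24) and Cd69 (0.36), and nearest to Tnfsf9 were Ifit1 (0.15) and Il6 (0.47). Cd80 was nearest to Gca and Sept11, Cd86 to Ets2 and Skil, Cd83 to Lcp2 and Malt1, and Icosl to Rab11fip1 and Rapgef2. Cd274 was nearest to A530032D15Rik and Gm18445, Tnfrsf9 to Trim58 and Slco3a1, Slamf1 to Ankrd44 and Gas7, and Pdcd1lg2, with almost no reads, to Nr6a1 and Zfp598. Genes on the opposite strand overlap Cd274, Pdcd1lg2, Tnfrsf9 and Tnfsf9, and whether counting used strand is not stated. For Tnfrsf9 the overlapping gene, Camta1, measured 1.07, 0.587 and 0.754 mean TPM in untreated, LPS and Met + LPS libraries.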

How the data were processed

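Poly-A RNA of 6 BMDM libraries had been sequenced. The authors deposited TPM values per gene (STAR 2.6.1d, SAMtools 1.9 and Subread 1.6.3 with featureCounts, GRCm38, per the submitters' processing notes and the study's methods), and how counts became TPM is not stated. TPM of each library sum to a fixed total, so changes in RNA per cell are not visible. The members and lists were chosen with earlier results of these data known.

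The 12755 genes that reached 1 TPM in 2 or more libraries entered limma (version 3.58.1, R 4.3.3), fitted to log2(TPM + 1) values with a mean-variance trend, 6 libraries in a common fit (3 residual degrees of freedom) and Benjamini-Hochberg adjustment over all tested genes. An exact permutation test of 2 against 2 libraries cannot go below p = 0.333. The count test of the study was not used because the values are TPM.

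Reads were recovered from TPM times exon length (GENCODE, GRCm38, 54495 genes matched by identifier). Of the values above 0, 96.4% to 96.6% came out whole within 0.05 reads, as did 54 of 59 member values. The other 5 are those of Pdcd1lg2, whose values were rounded. Recovered reads were tested with voom as an alternative. Genes named outside the members passed both cut-offs, were the most abundant of their list in a group, or were the 2 nearest in pattern to a member. March1, Slamf7, Camta1 (an overlap), the ratios and single cell type markers were singled out after their values were seen. The script was checked on simulated data. Tables were made in Python 3.11.15 with pandas 2.3.3, and promoter windows came from RefSeq.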

Additional observations from a re-analysis of the deposited data

How the results depend on the processing

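Of 381 values of single members under alternatives, 354 kept their direction and their side of the adjusted p cut-off, 22 lost the call, 5 gained it, 3 for Cd83 and 2 for Cd274, and 0 reversed. All lost calls were in Met + LPS vs. LPS, for Cd80, Icosl and Tnfrsf9. The count of members lower past both cut-offs in that comparison, 2 as reported, was 1 with a filter of at least 5 TPM, which removes Tnfrsf9, 1 when the log2 fold change had to reach 1, and 1 to 2 when single libraries were left out. The value of 1 came from leaving out either Met + LPS library, in which case the lone library is assumed to vary like the other groups. The count lower by adjusted p alone, 4 as reported, was 2 with only the 2 groups compared, 2 without the trend, and 1 to 3 when single libraries were left out. It was 3 without LPS replicate 2, 2 without either untreated library or LPS replicate 1, and 1 without either Met + LPS library. With the replicate number as a block it was 2. Same-numbered libraries did not deviate together, with correlations of -0.0037, 0.028 and 0.0062 between groups, so the number is not taken to pair them. Against untreated, the count of members higher in Met + LPS past both cut-offs, 6 as reported, was 7 with median-ratio scaling, through Cd80. Slamf1 and Pdcd1lg2 rest on few reads. With 0 to 2 reads per library, differences of Pdcd1lg2 are limited by counting error. For Slamf1 the exact intervals of LPS over untreated (9.40 to 93.0) and over Met + LPS (5.69 to 23.4) lay above 1. They cover counting error only and not the spread between 2 libraries per group.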
